A study of Xenopus laevis with 28 samples.

Results

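Cer1 (Cerberus) and Dand5 (known in Xenopus as Coco) are secreted antagonists of the DAN family, cystine-knot proteins that bind ligands of the Tgf-beta family outside the cell. In Xenopus, Cerberus binds Nodal, Bmp and Wnt proteins, is made in the anterior endomesoderm of the gastrula and can induce head structures when supplied ectopically. Coco is supplied by the mother as mRNA, can inhibit Bmp, Nodal and Wnt signals in the ectoderm, and is needed again in the neurula, where it restrains Nodal at the margin of the gastrocoel roof plate during left-right patterning. The models described here were all those whose symbol, without the suffix of the subgenome, was cer1 or dand5. Of 45831 gene models in the series, 4 met this rule: cer1.L (Xelaev18006799m), cer1.S (Xelaev18010056m), dand5.L (Xelaev18019052m) and dand5.S (Xelaev18000771m). *Xenopus laevis* is allotetraploid, and L and S name the homeologous copies on the long and short subgenomes.

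The libraries were made from polyA RNA of untreated J strain animals, as oocytes, unfertilized eggs or whole embryos. Oocytes of classes 1-2, 3-4 and 5-6 gave 1 library each, from the Ueno set. Eggs and embryos of Nieuwkoop and Faber stages 8, 9, 10.5, 12, 15, 20, 25, 30, 35 and 40 gave 1 library in each of 2 clutches, named Taira and Ueno, and a second Ueno series added 1 library each of stages 8, 10 and 35. In the titles each of these sets has its own series name, so clutch and series cannot be told apart between Taira and Ueno. The titles and column headers call the stage 10.5 libraries stage 10 as well, and the stages used here are those of the developmental stage and source fields. The labels do not say how many animals entered a library, so p-values measure the spread between these libraries. Levels are the authors' TPM, a transcript's share of all transcripts after division by length, and a TPM mean is given ± SD over its libraries (n = 2 unless stated).

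The library labelled stage 40 Ueno stood apart and was left out, so 27 of 28 libraries were used. Over all models its Spearman correlation was 0.938 with egg Ueno and 0.930 with egg Taira, against 0.703 with stage 40 Taira. Its summed level of 8 oocyte and egg marker models was 200.1 TPM, within the 0 to 243 TPM of the 14 libraries of stages 12 to 40 and just below the 213 to 308 TPM of the eggs. The range of stages 12 to 40 pools stages over which these markers fell. Of the 7 tested, 6 were lower at stage 15 than at stage 12, where 10.4% of all models were lower (contrasts described below). In the library labelled stage 40 Ueno, the summed level of 11 embryo marker models was 264 TPM (gsc.L and t.S at 0). That lay above the 60.1 to 196 TPM of the eggs (actc1.L and gsc.L at 0) and below the 1069 to 3471 TPM of those 14 libraries. In the oocyte libraries, 10 models of ovarian somatic cells and blood summed to 8.48 to 70.9 TPM, against 4.01 to 5.34 TPM in eggs, and the 8 of oocytes and eggs to 846 to 1206 TPM with zp2.Sp at 0. The part of other ovarian cells in the oocyte values was not tested.

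The members divided by gene and not by subgenome. In mean level without the second Ueno series, both dand5 copies were highest in the egg and both cer1 copies at stage 12. For cer1.L, the stage 10 library of that series held 82.9 TPM, between the stage 12 values of 65.2 (Ueno) and 92.1 TPM (Taira). Dand5 RNA was abundant before gastrulation and fell during it, while cer1 RNA was near 0 before gastrulation, high at stages 10.5 and 12, and low again at stage 15. The rise of cer1 and the loss of dand5 overlapped at stage 10.5, where all 4 models were at 53.3 TPM or more in both clutches.

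**Figure D1:**
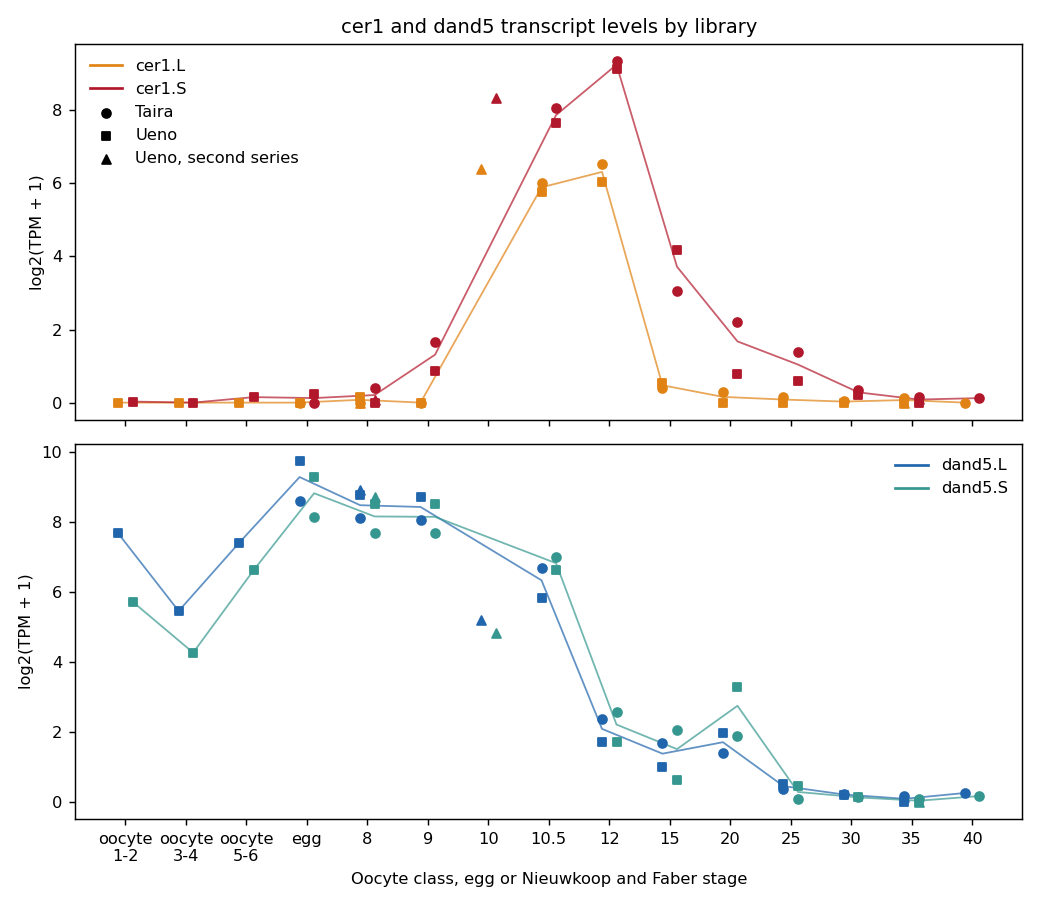
Levels of cer1.L and cer1.S (top) and of dand5.L and dand5.S (bottom) in the 27 libraries used, as log2(TPM + 1) on the vertical axis, by oocyte class, egg or stage on the horizontal axis. Points are libraries, with shape giving the clutch, and lines join the means without the second series. Cer1 is high from stage 10 to stage 12, and dand5 from the oocyte to stage 10.5.

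Cer1.S carried most of the cer1 RNA. It was listed at 0 and 0.180 TPM (Taira and Ueno) in eggs, 0.310 and 0 at stage 8, and 2.16 and 0.810 at stage 9. Stage 10.5 held 266 and 199.8 TPM and stage 12 held 651 and 563 TPM. Stage 15 held 7.27 and 17.1 TPM, and stage 20 held 3.66 and 0.730 TPM. In order of mean level, stages 12, 10.5, 15 and 20 did not overlap each other, while stage 20 overlapped stage 9 and stage 9 overlapped stage 25. Later values ran from 0 to 1.61 TPM, and the 3 oocyte libraries from 0 to 0.110 TPM. At stage 12, cer1.S ranked 184th (Taira) and 240th (Ueno) among the 45831 models.

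Cer1.L had a similar course at a lower level. It was listed at 0 in both eggs and both stage 9 libraries, and at 0 and 0.110 TPM at stage 8. It reached 63.5 and 53.3 TPM at stage 10.5 and 92.1 and 65.2 TPM at stage 12, with 0.320 and 0.460 TPM left at stage 15. From stage 20 on it was at 0.230 TPM or less in all libraries, and it was listed at 0 in the 3 oocyte libraries. At stage 9, where cer1.S was above 0 in both clutches, cer1.L was not. The values of stages 12 and 10.5 did not overlap, nor did those of stages 10.5 and 15.

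Dand5.L was the maternal transcript with the highest single value of the members. It was at 380 and 854 TPM in eggs, 273 and 433 at stage 8, and 265 and 417 at stage 9. Stage 10.5 held 102 and 56.2 TPM and stage 12 held 4.22 and 2.30 TPM. Stage 15 held 2.20 and 1.02 TPM, and stage 20 held 1.65 and 2.90 TPM. Eggs, stage 8 and stage 9 overlapped, whereas each was above stage 10.5, and stage 10.5 above stage 12. From stage 25 on, no library was above 0.440 TPM. In the egg it ranked 390th (Taira) and 165th (Ueno) among all models.

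Dand5.S followed closely. It was at 281 and 615 TPM in eggs, 202 and 363 at stage 8, and 202 and 359 at stage 9. Stage 10.5 held 125 and 97.9 TPM and stage 12 held 4.97 and 2.31 TPM. Stage 15 held 3.15 and 0.560 TPM, and stage 20 held 2.72 and 8.73 TPM. In order of mean level, egg, stage 8 and stage 9 overlapped, as did stages 20, 12 and 15. From stage 25 on, no library was above 0.380 TPM. All 4 members were listed at 0 in stage 35 Ueno, a library that stands apart: 21243 models were above 0 there, against 28970 to 33096 in the other libraries used of stages 25 to 40.

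In oocytes, the dand5 copies were low in the middle class. Dand5.L was at 202 TPM in oocytes of classes 1-2, 42.8 in classes 3-4 and 168 in classes 5-6, and dand5.S at 51.6, 18.2 and 97.2 TPM. The egg of the same set had 5.10 times the dand5.L and 6.33 times the dand5.S of the class 5-6 oocytes. These are ratios of 1 library each, with no replicate check. Libraries selected by their polyA tails do not tell apart more RNA from longer tails, and TPM is a share of all RNA measured.

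Stage contrasts were fitted with limma on log2(TPM + 1) across the 28171 models with a TPM of at least 1 in at least 2 of 21 libraries (eggs and stages 8 to 40), with clutch as a block. The ± after a difference is the standard error, adjusted p-values are Benjamini-Hochberg values over all models tested, and a call needs an adjusted p under 0.05. All 4 members were tested. The spread of each model was estimated over all stages of the fit together. Cer1 was near 0 at most of them, so its standard errors and p-values do not measure the spread at the compared stages alone. Since they were proposed with values of these contrasts already known, the p-values below describe the fit and are no independent support.

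Between the maternal and the gastrula libraries, cer1 and dand5 changed in opposite directions. Cer1.S averaged 420.1 TPM in the 4 gastrula libraries (stages 10.5 and 12) and 0.123 TPM in the 4 maternal libraries (egg and stage 8), a difference of 8.39 ± 0.32 (adjusted p = 1.46e-10). Cer1.L averaged 68.5 TPM in the gastrula and 0.0275 TPM in the maternal libraries, a difference of 6.05 ± 0.16 (adjusted p = 1.87e-11). Dand5.L averaged 41.3 TPM in the gastrula and 485 TPM in the maternal libraries, a difference of -4.64 ± 0.31 (adjusted p = 3.56e-08). Dand5.S averaged 57.7 TPM in the gastrula and 365 TPM in the maternal libraries, a difference of -3.92 ± 0.39 (adjusted p = 1.67e-06). The groups did not overlap in any of the 4. Calls were common in this contrast, at 48.2% of all models in either direction, 26.1% higher and 22% lower.

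**Figure D2:**
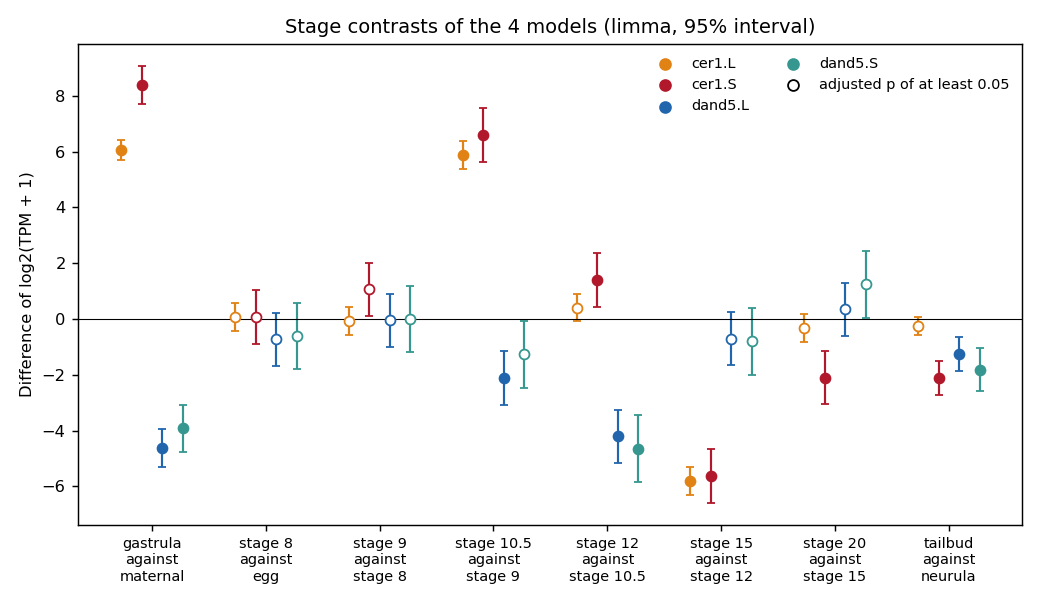
Differences of log2(TPM + 1) for the 4 models in 8 stage contrasts, with 95% intervals from limma, the later stage minus the earlier. Filled points are called and open points are not. Cer1.S and cer1.L lie at 8.39 and 6.05 in the gastrula against maternal contrast, and dand5.L and dand5.S at -4.64 and -3.92.

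Before gastrulation no member was called. At stage 8 against the egg, the differences were -0.73 ± 0.44 for dand5.L (95% interval -1.68 to 0.23) and -0.61 ± 0.56 for dand5.S (-1.81 to 0.58), where 36.5% of models were called, 32.8% higher and 3.71% lower. No member had an unadjusted p under 0.05. This depended on scaling: after median-of-ratios scaling both were lower at stage 8, at -2.05 (adjusted p = 0.00660, alternatives 0.00660 to 1) and -1.94 (adjusted p = 0.0313, alternatives 0.0313 to 1). After quantile normalization they were -0.22 and -0.23, not called. Leaving out egg Taira gave -1.33 for dand5.L (adjusted p = 0.0538) and -1.14 for dand5.S, and leaving out egg Ueno gave -0.12 and -0.09. Median-of-ratios scaling moved the median of all models in this contrast to 0.00, against 0.31 in TPM as deposited, and the share of higher calls to 39.38%, against 89.85% (50.08% after quantile normalization). At stage 9 against stage 8, across the midblastula transition, dand5.L changed by -0.05 ± 0.44 (-1.0 to 0.90) and dand5.S by -0.01 ± 0.56 (-1.20 to 1.18), and cer1.S was 1.06 ± 0.45 higher, with 2.16 and 0.810 TPM at stage 9 against 0.310 and 0 TPM at stage 8 (limma, unadjusted p = 0.0321, adjusted p = 1). At this transition 1.14% of models were called, 1.13% higher and 0.00355% lower.

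The onset of gastrulation brought the steepest rise of cer1. At stage 10.5 against stage 9, cer1.S was higher by 6.60 ± 0.45 (adjusted p = 5.84e-07) and cer1.L by 5.89 ± 0.23 (adjusted p = 1.54e-08), where 15.7% of models were called and 6.34% were higher. Within the Taira clutch cer1.S was 123 times higher at stage 10.5 than at stage 9. Dand5.L fell by 2.12 ± 0.44 (adjusted p = 0.00494), to 79.3 ± 32.7 TPM at stage 10.5, against 341 ± 108 TPM at stage 9, where 9.38% were called lower. The dand5.L call was lost without stage 9 Ueno (-1.80, adjusted p = 0.0845) or stage 10.5 Ueno (-1.60, adjusted p = 0.115), in alternatives with adjusted p from 0.00129 to 0.721. Dand5.S differed by -1.27 ± 0.56 and was not called (adjusted p = 0.154), though its libraries did not overlap, with 125 and 97.9 TPM at stage 10.5 against 202 and 359 TPM at stage 9. Of the calls in this contrast 40.35% were higher, against 63.58% after median-of-ratios scaling and 51.2% after quantile normalization.

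Between stages 10.5 and 12 the dand5 copies were nearly lost while cer1.S went on rising. Dand5.L differed by -4.21 ± 0.44 (adjusted p = 4.75e-05) and dand5.S by -4.65 ± 0.56 (adjusted p = 0.000108), where 29.4% of models were called and 23.3% were lower. The dand5.L level at stage 12 was 24.3 times lower than at stage 10.5 in Taira and 24.4 times lower in Ueno, and dand5.S 25.2 and 42.4 times lower. Cer1.S reached 607 ± 62.3 TPM at stage 12, against 233 ± 47.0 TPM at stage 10.5, a difference of 1.39 ± 0.45 (adjusted p = 0.0308), where 6.1% were called higher. That call was lost when any of its 4 libraries was left out: without stage 12 Taira (adjusted p = 0.113), stage 12 Ueno (0.123), stage 10.5 Taira (0.109) or stage 10.5 Ueno (0.130), within alternatives from 0.00190 to 0.232. The difference itself stayed between 1.32 and 1.45. Cer1.L, with 92.1 and 65.2 TPM at stage 12 against 63.5 and 53.3 TPM at stage 10.5, was not called (0.41 ± 0.23, adjusted p = 0.217), but was called after median-of-ratios scaling (1.03, adjusted p = 0.00329) and quantile normalization (0.71, adjusted p = 0.0446), within alternatives from 0.00329 to 0.746. Unscaled, the median of all models was -0.26 and 20.74% of calls were higher. Median-of-ratios scaling gave a median of 0.00 and 54.49%, and quantile normalization gave 47.72%.

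Cer1 was then lost within 1 sampled interval. At stage 15 against stage 12, cer1.S differed by -5.63 ± 0.45 (adjusted p = 2.00e-06), falling to 12.2 ± 6.94 TPM at stage 15, against 607 ± 62.3 TPM at stage 12, and cer1.L differed by -5.82 ± 0.23 (adjusted p = 1.45e-08), where 22.7% of models were called, 12.3% higher and 10.4% lower. Cer1.S was 89.6 times lower at stage 15 in Taira and 33.0 times lower in Ueno. The dand5 copies, already low, differed by -0.71 ± 0.44 (dand5.L, adjusted p = 0.290) and -0.80 ± 0.56 (dand5.S, adjusted p = 0.342). With 1 library left out, dand5.L ran from -1.12 to -0.29 and dand5.S from -1.69 (without stage 15 Taira) to 0.08 (without stage 15 Ueno), and neither was called.

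In the neurula the members were at low levels and the clutches differed. At stage 20 against stage 15, cer1.S fell by 2.11 ± 0.45 (adjusted p = 0.0246, 0.99% of models called lower), with 3.66 TPM at stage 20 against 7.27 TPM at stage 15 in Taira and 0.730 against 17.1 TPM in Ueno. The call was lost without stage 20 Ueno (-1.48, adjusted p = 0.303), without stage 15 Ueno (-1.32, adjusted p = 0.375) and without the clutch block (adjusted p = 0.0949), within alternatives from 0.00410 to 0.375. Dand5.S was at 2.72 TPM at stage 20 against 3.15 TPM at stage 15 in Taira, and at 8.73 against 0.560 TPM in Ueno, a difference of 1.24 ± 0.56 that was not called (adjusted p = 0.210). The difference was 0.35 without stage 15 Ueno, 0.57 without stage 20 Ueno, 1.91 without stage 20 Taira and 2.13 without stage 15 Taira, and not called in any of them (adjusted p from 0.0561 to 0.903). Dand5.L was at 1.65 against 2.20 TPM in Taira and at 2.90 against 1.02 TPM in Ueno, so its clutches also moved in opposite directions, and it was not called (0.34 ± 0.44, adjusted p = 0.727, and -0.07 to 0.75 with 1 library left out). Of all models 3.26% were called and 2.27% were higher. Calls in this contrast were 69.64% higher before scaling and 58.15% after quantile normalization.

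By the tailbud the members had all but gone. In the 6 libraries of stages 25 to 35 against the 4 of stages 15 and 20, cer1.S fell by 2.11 ± 0.29 (0.445 against 7.19 TPM on average, adjusted p = 6.39e-05), dand5.L by 1.26 ± 0.29 (0.203 against 1.94 TPM, adjusted p = 0.00286) and dand5.S by 1.81 ± 0.36 (0.118 against 3.79 TPM, adjusted p = 0.00110), where 46.4% of models were called, 20.9% higher and 25.5% lower. The groups overlapped for cer1.S and not for the dand5 copies. Without stage 35 Ueno, where the fewest models were above 0, all 3 were still called, at -2.13 (cer1.S, adjusted p = 0.000281), -1.21 (dand5.L, adjusted p = 0.00879) and -1.76 (dand5.S, adjusted p = 0.00414). Cer1.L, at 0.0433 against 0.253 TPM, was not called (-0.25 ± 0.15, adjusted p = 0.185). The dand5.L value was -0.41 with a pseudocount of 5, and no longer called (adjusted p = 0.179, alternatives 8.01e-05 to 0.444).

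Set side by side in each library, the summed levels of both genes changed places at the start of gastrulation. The dand5 copies together were at 661 and 1469 TPM in eggs, where the cer1 copies were at 0 and 0.180 TPM. At stage 9 dand5 was still at 467 and 776 TPM, and cer1 at 2.16 and 0.810 TPM. At stage 10.5 cer1 was at 330 and 253 TPM and dand5 at 228 and 154 TPM, so cer1 already exceeded dand5 in both clutches. At stage 12 cer1 was at 743 and 628 TPM and dand5 at 9.19 and 4.61 TPM. On the scale of log2((cer1 + 1)/(dand5 + 1)), eggs had -9.37 and -10.28, stage 8 had -8.51 and -9.49, and stage 9 had -7.21 and -8.75. Stage 10.5 had 0.53 and 0.71, and stage 12 had 6.19 and 6.81. At stage 20 the order differed little in Taira (-0.14) and favoured dand5 in Ueno (-2.87).

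**Figure D3:**
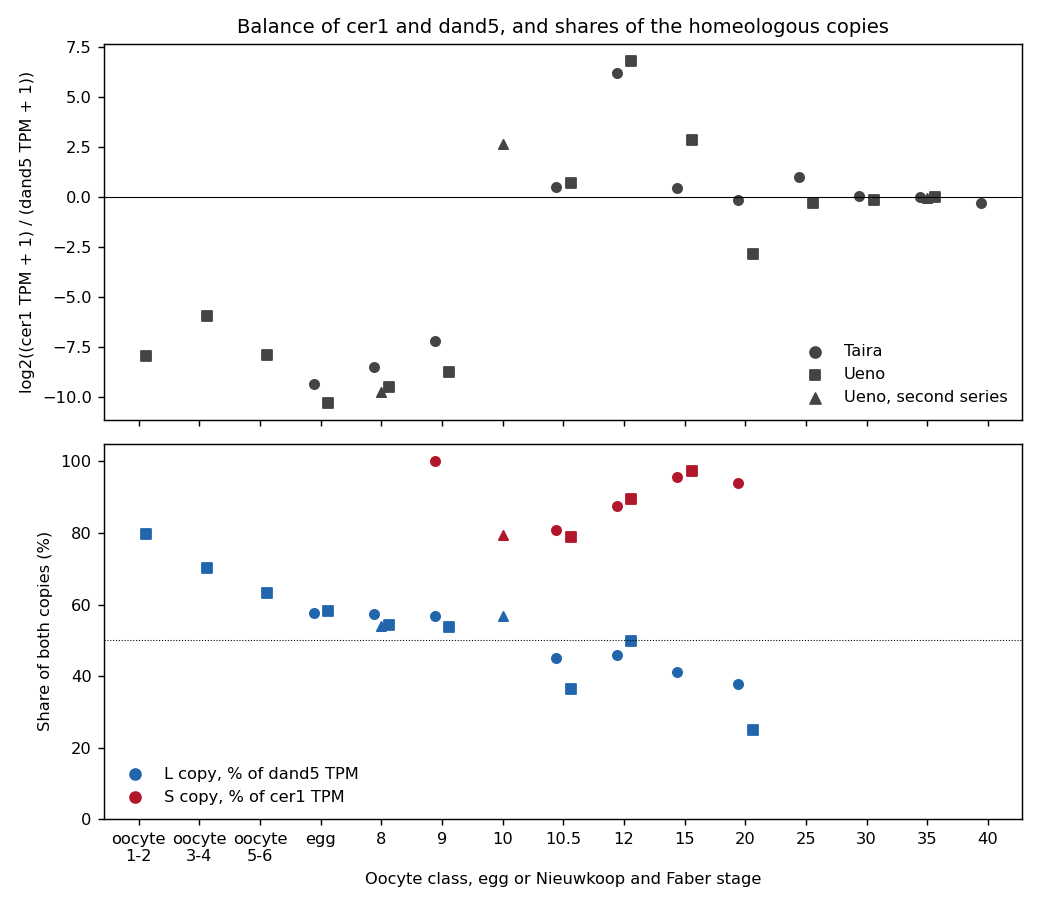
Top, log2 of the ratio of summed cer1 to summed dand5 TPM (each + 1) in the 27 libraries. Bottom, the L copy as a percentage of dand5 TPM and the S copy as a percentage of cer1 TPM, in libraries where the gene had at least 2 TPM. The ratio is -7.21 or lower in eggs and at stages 8 and 9, close to 0 at stage 10.5 (0.53 and 0.71), and highest at stage 12 (6.19 and 6.81).

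The stage 10 library of the second Ueno series, set apart from the stage 10.5 libraries by the developmental stage and source fields and not by its title, lay beyond the stage 10.5 libraries in both genes. It held 323 TPM of cer1.S and 82.9 TPM of cer1.L, which is 1.21 to 1.61 times the cer1.S and 1.31 to 1.56 times the cer1.L of the stage 10.5 libraries. It held 35.9 TPM of dand5.L and 27.3 TPM of dand5.S, which is 0.351 to 0.640 and 0.218 to 0.279 times those libraries. Its log2 ratio of cer1 to dand5 was 2.66. By its label this library comes before stage 10.5, so in both genes these differences ran against the order of the labelled stages. It has no replicate, so neither the differences nor the label were tested. The second stage 8 library, with 481 TPM of dand5.L and 412 TPM of dand5.S, was above both other stage 8 libraries.

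The measured share of each homeologous copy varied between libraries of different stages in both genes. Of the changes given here, only those in the gastrula against the maternal libraries were called in the main fit. For cer1 the log2 ratio of L to S differed there by -2.34 ± 0.28 (limma, adjusted p = 1.03e-05), where 49.1% of pairs were called. The cer1 copies averaged only 0.0275 (L) and 0.123 TPM (S) in the maternal libraries, so the maternal ratio was set mostly by the 1 added to each TPM. RSEM divides reads that match both copies, so these shares depend on that division. The S copy gave 79.5% of cer1 TPM in the stage 10 library and 80.7% and 78.9% at stage 10.5. It gave 87.6% and 89.6% at stage 12 and 95.8% and 97.4% at stage 15, where cer1.L was at only 0.320 and 0.460 TPM. Stage 12 thus lay above stage 10.5 in both clutches, yet the change in the log2 ratio of L to S from stage 10.5 to stage 12 was not called (-0.98 ± 0.39, limma over 6651 homeolog pairs, adjusted p = 0.0918, 22.1% of pairs called). With a pseudocount of 5 it was called (-0.99, adjusted p = 0.00841, alternatives 0.00841 to 0.480). For dand5, the L copy gave 79.7% of the TPM in oocytes of classes 1-2, 70.1% in classes 3-4 and 63.3% in classes 5-6, then 57.5% and 58.1% in eggs. Its share was 44.9% and 36.4% at stage 10.5, against 56.7% and 53.8% at stage 9, and that change in the ratio of L to S was not called (-0.84 ± 0.29, adjusted p = 0.0831, 12.3% of pairs called). With a pseudocount of 5 it was called (-0.81, adjusted p = 0.00820, alternatives 0.00820 to 0.553). The stage 10 library, at 56.8%, lay with the earlier stages. The L share of dand5 was 57.5% and 54.4% at stage 8. At stage 12 it was 45.9% and 49.9%, with each copy at 4.97 TPM or less, where the 1 added to each TPM weighs on the ratio. In the gastrula against the maternal libraries the dand5 ratio of L to S fell by 0.72 ± 0.21 (adjusted p = 0.0105), in a contrast where 49.1% of pairs were called. The call was lost without stage 10.5 Ueno (-0.61, adjusted p = 0.0550) and with a pseudocount of 0.1 (-0.73, adjusted p = 0.0862). These ratio fits were chosen after the values had been seen.

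Across the 27 libraries, the courses most like each member were ranked by Pearson correlation of log2(TPM + 1) among 11588 models with a symbol and a TPM of at least 10 in some library. The libraries share stages and clutches, so the values only describe likeness. The 5 most like cer1.S were pnhd.S, a secreted cystine-knot protein (0.988), rbm20.S, an RNA-binding splicing factor (0.985), the homeobox gene sebox.L (0.971), the prostaglandin dehydrogenase hpgd.S (0.970) and the Wnt antagonist frzb.S (0.967). For cer1.L they were sebox.L (0.994), cer1.S (0.963), the endoderm homeobox genes mixer.L (0.961) and mixer.S (0.951), and foxd4l1.2.L (0.948). Dand5.L was most like its own homeolog (0.987), followed by the embryonic cyclin ccna1.L (0.987), the maternal pluripotency factor pou5f3.3.S (0.984), the meiotic kinase mos.L (0.983) and ccna1.S (0.981). For dand5.S these were dand5.L, ccna1.L (0.972), the anaphase-promoting complex subunit cdc27.S (0.970), the RNA polymerase III factor brf2.L (0.969) and macrod2-like.L (0.968). The cer1 and dand5 courses were close to uncorrelated, from -0.07 to 0.06 between the genes.

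The highest level of each other DAN family model was below the highest level of each member, while from stage 25 on grem1.L and nbl1.L were above all 4 members. Of 5 such models 4 were tested, and in the gastrula against the maternal libraries 1 was higher and 1 lower (median 0.47, and 0.06 over all models), near the 26.1% higher and 22% lower of all models. The Bmp antagonist grem1.L (Xelaev18039980m) was at 6.16 ± 4.15 TPM in the gastrula and 5.35 ± 4.95 TPM in the maternal libraries (SD, n = 4 each) and not called (adjusted p = 0.0950), and its highest level, 34.1 TPM, came at stage 35 Taira. Nbl1.L (Xelaev18036422m), the founding DAN gene, was lower, at 9.94 ± 7.93 TPM in the gastrula and 21.7 ± 18.9 TPM in the maternal libraries (-0.87 ± 0.20, adjusted p = 0.00229), with its highest level, 47.7 TPM, in class 5-6 oocytes and in the second Ueno library of stage 8. Its course was not a steady fall. Eggs held 6.11 and 4.88 TPM of nbl1.L, stage 8 held 35.9 and 40.1 TPM, and stage 10.5 held 19.3 and 13.75 TPM. Stage 12 held 3.20 and 3.51 TPM, so stage 10.5 lay above the eggs and stage 12 below them. The Bmp and Wnt antagonist sostdc1.S (Xelaev18033014m) was higher, at 5.51 ± 0.91 TPM in the gastrula and listed at 0 in all 4 maternal libraries (adjusted p = 1.89e-06). Its homeolog sostdc1.L (Xelaev18030924m) was at 0.470 ± 0.359 TPM in the gastrula and 0.0225 ± 0.0450 TPM in the maternal libraries and not called (adjusted p = 0.319).

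**Figure D4:**
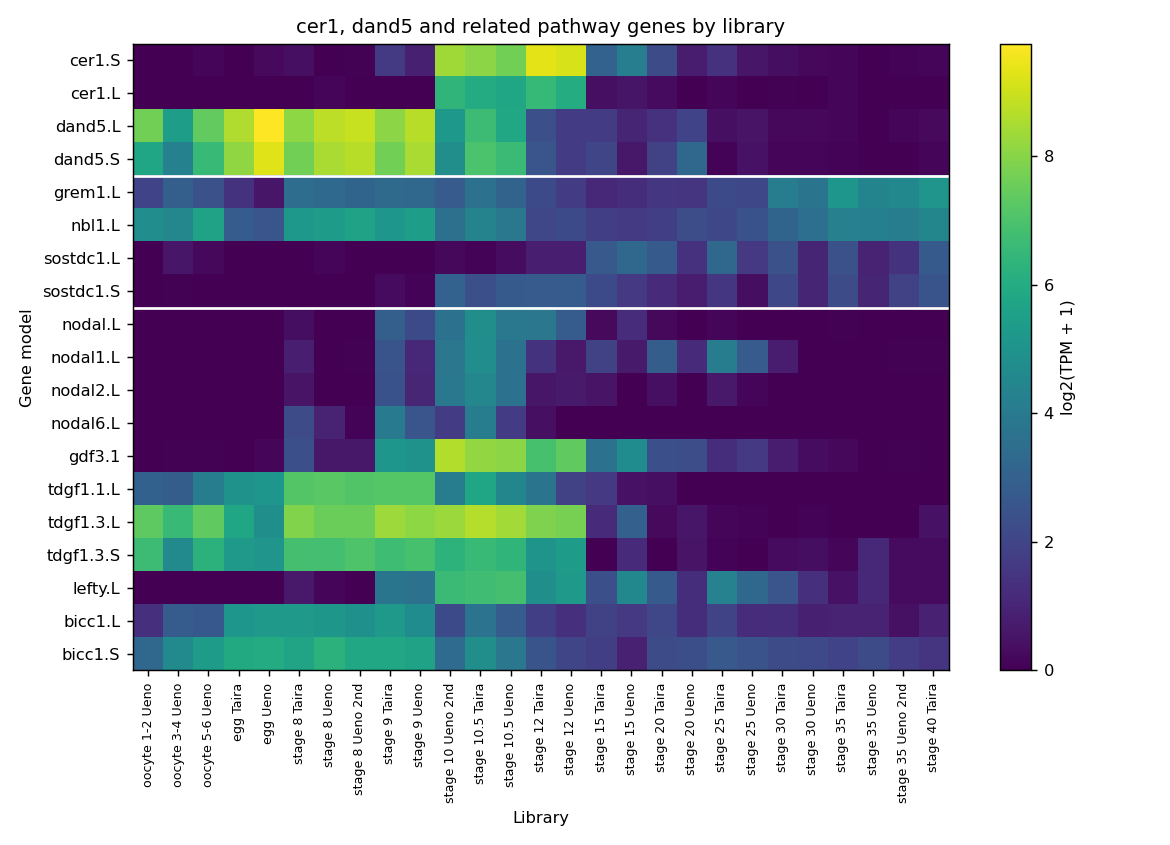
Log2(TPM + 1), as colour, of the members (top 4 rows), other DAN family models (next 4) and related pathway genes, in the 27 libraries in order of development. Cer1.S reaches 651 TPM at stage 12 Taira and dand5.L 854 TPM in egg Ueno, while grem1.L, nbl1.L and both sostdc1 copies stay at 47.7 TPM or less.

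The Nodal ligands, which both antagonists are known to bind, were highest at stage 10.5 or in the stage 10 library among those named. Of 18 tested ligand and coreceptor models, 8 were higher and 1 lower in the gastrula than in the maternal libraries (median 0.75, and 0.06 over all models). Of all models, 26.1% were higher and 22% lower in that contrast. Gdf3.1 (Xelaev18001124m), a mesoderm-inducing ligand, was at 207 ± 79.2 TPM in the gastrula and 1.21 ± 1.99 TPM in the maternal libraries (6.82 ± 0.33, SE, adjusted p = 1.46e-09). The Nodal ligands nodal.L (3.76 ± 0.27), nodal1.L (2.44 ± 0.27) and nodal2.L (2.22 ± 0.23) were also higher (adjusted p = 7.60e-08, 4.11e-06 and 2.40e-06). The nodal1.L groups overlapped, at 0.590 to 26.7 TPM in the gastrula and 0 to 0.750 TPM in the maternal libraries. Nodal2.L ran from 0.490 to 21.8 TPM in the gastrula and from 0 to 0.440 TPM in the maternal libraries. The low gastrula values of nodal1.L and nodal2.L were those of stage 12. From stage 10.5 to stage 12, where cer1.S rose and dand5 fell, 10 of the 18 were lower and 0 higher (median -1.29 against -0.26 over all models), with 23.3% of all models lower. At an unadjusted p under 0.05, 12 were lower and 0 higher. The counts were 8 lower after median-of-ratios scaling and 9 after quantile normalization, with 0 higher in both. For example nodal1.L was at 1.68 and 0.590 TPM at stage 12, against 26.7 and 11.8 TPM at stage 10.5. The coreceptor tdgf1.3.L is given by its levels only, and not as a called model. It was at 229 and 214 TPM at stage 12, against 406 and 336 TPM at stage 10.5.

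Of 17 tested receptor and transducer models, 2 were higher and 7 lower in the gastrula (median -0.52, and 0.06 over all models), where 26.1% of all models were higher and 22% lower. The Nodal transcription factor foxh1.L (Xelaev18032512m), like dand5 a maternal transcript, was lower, at 78.7 ± 62.8 TPM in the gastrula and 446 ± 217 TPM in the maternal libraries (-2.74 ± 0.28, adjusted p = 2.02e-06). Foxh1.S (-1.94 ± 0.23) and the signal transducer smad2.S (-2.66 ± 0.31) were also lower (adjusted p = 7.99e-06 and 6.65e-06), and the zygotic foxh1.2.L was higher (4.27 ± 0.45, adjusted p = 2.74e-06). The foxh1.2.L groups overlapped, at 1.74 to 278 TPM in the gastrula and 0 to 4.12 TPM in the maternal libraries. Those of foxh1.S overlapped too, at 0.830 to 27.5 TPM in the gastrula and 9.69 to 72.5 TPM in the maternal libraries.

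Of 11 tested models of other antagonists and repressors of Nodal signals, 7 were higher and 1 lower (median 1.09), beside 26.1% higher and 22% lower over all models. The feedback inhibitor lefty.L (Xelaev18026286m) was at 27.6 and 36.4 TPM at stage 12, where cer1.S was highest, against 106 and 115 TPM at stage 10.5, and it was listed at 0 in both eggs (5.71 ± 0.46 in the gastrula against maternal contrast, adjusted p = 1.87e-07). The inhibitory Smads smad7.L (3.06 ± 0.26) and smad7.S (2.68 ± 0.20) and the corepressor tgif1.L (1.56 ± 0.30) were higher as well (adjusted p = 3.02e-07, 7.98e-08 and 0.000540). For tgif1.L the mean TPM did not follow, at 25.3 ± 5.65 in the gastrula and 25.8 ± 29.2 in the maternal libraries (SD, n = 4 each), and the maternal libraries ran from 0.300 to 51.95 TPM.

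All 33 tested models of the Nodal target list were higher in the gastrula than in the maternal libraries (median 5.77, and 0.06 over all models). Of all models, 26.1% were higher and 22% lower. The list was chosen with earlier results of these data known, so this count is no independent support. The mesoderm gene t.S (7.74 ± 0.33), the axial mesoderm gene foxa4.L (7.54 ± 0.32), wnt8a.L (7.24 ± 0.38) and mixer.L (7.2 ± 0.31) had the largest differences of the list's models with 10 TPM or more in 1 of the 8 libraries (adjusted p = 3.78e-10, 4.05e-10, 3.29e-09 and 4.88e-10). The list of the anterior endomesoderm and head organizer, the tissue in which cer1 is known to be expressed, had 23 higher and 1 lower of 25 (median 4.63). The same shares of all models and the same limit apply to it. There foxa4.S (6.99 ± 0.43), sox17a.S (6.70 ± 0.31) and frzb.S (6.43 ± 0.29) stood with foxa4.L (adjusted p = 1.44e-08, 8.16e-10 and 6.35e-10). In whole embryos, more cells of a tissue and more RNA per cell cannot be told apart.

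The lists share genes, so their counts are not separate. Of all models, 26.1% were higher and 22% lower in the gastrula than in the maternal libraries. Of the marker lists used on the libraries, 9 of 11 embryo models were higher and 0 lower in the gastrula (median 4.75), 1 of 7 tested oocyte and egg models was higher and 1 lower (median -0.23), and 0 of 10 models of ovarian somatic cells and blood were called, with 0 at an unadjusted p under 0.05. Of the Bmp list, 16 were higher and 1 lower of 23 tested (median 1.94), among them the chordin-cleavage inhibitor szl.L (6.23 ± 0.35), szl.S (4.81 ± 0.38) and the organizer ligand admp in both copies (admp.S 5.67 ± 0.29, admp.L 5.23 ± 0.39), with adjusted p from 2.34e-09 to 1.78e-07. Of the Wnt list, 14 were higher and 1 lower of 27 (median 0.56), beside the same 26.1% and 22% of all models, among them frzb.L (5.85 ± 0.35, adjusted p = 1.06e-08). Wnt8a.S was at 65.8 ± 11.8 TPM in the gastrula and listed at 0 in the maternal libraries (adjusted p = 1.89e-10).

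Of the left-right list, 10 were higher and 6 lower of 21 (median 0.58), against 7 higher and 7 lower after quantile normalization. With 26.1% of all models higher and 22% lower, the lower count is near the background. The cilia regulator foxj1.S was higher (3.99 ± 0.24, adjusted p = 1.24e-08). Bicc1, an RNA-binding protein known in mouse and Xenopus to act on dand5 mRNA, was maternal like dand5. Bicc1.S was at 59.9 and 62.3 TPM in eggs and 54.4 and 48.0 TPM at stage 9. It was at 27.4 and 13.6 TPM at stage 10.5 and 4.73 and 3.08 TPM at stage 12. At stage 20, when dand5 is known to act in left-right patterning, nodal1.L was at 6.23 and 1.32 TPM. Dand5.S was then at 2.72 and 8.73 TPM and dand5.L at 1.65 and 2.90 TPM. At stage 15 nodal1.L (2.79 and 0.61 TPM) and dand5.S (3.15 and 0.560 TPM) were both higher in Taira. A relation between nodal1.L and dand5 levels was not tested. At stage 20 against stage 15, 0 of the 21 left-right models were higher and 1 lower, with 3.26% of all models called. At an unadjusted p under 0.05 these were 1 higher and 4 lower.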

How the data were processed

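TPM values, deposited by the authors for each gene model in 28 columns, were not rescaled. The submitters' processing notes name BWA 0.7.10 and RSEM 1.2.19, and per the labels' descriptions the reference was the cDNA set JGIv18pV2. Settings and depth are not given in the sources used here, so no counting intervals or floors can be given. Per the labels' protocols the libraries were not strand-specific, so antisense reads would count towards a gene. Models with a TPM of at least 1 in at least 2 of 21 libraries were fitted with limma 3.58.1 in R 4.3.3 on log2(TPM + 1), which understates changes of low genes, by stage with clutch as block (9 residual degrees of freedom, eBayes with trend, two-sided). The fit was also run on simulated data with independent normal noise of the fitted spread. Such data do not mimic values near 0 or clutch differences that vary by stage, so no support is drawn from that run. Pairing comes from the labels' clutch: differences between clutches at 2 stages correlated at a median of 0.416 over 45 stage pairs (0.170 to 0.879).

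The members, 12 gene lists and contrasts were chosen with earlier results of these data known. Named list genes were the 4 called in the gastrula against maternal contrast with the largest change and a TPM of at least 10, every tested DAN family model, and the 5 most correlated models per member. The values of nodal1.L, tdgf1.3.L and bicc1.S by stage were chosen after their values were seen. Each fit was repeated with a pseudocount of 0.1 or 5, without the filter or with one at 5 TPM, after quantile normalization or median-of-ratios scaling, without block or trend, with the library labelled stage 40 Ueno or the second Ueno series, and without each library in turn. Where the second Ueno series was added, it shared the clutch block of the first. Fits of cer1.L, dand5.S and homeolog ratios were added after the data had been seen. RefSeq symbols of assembly Xenopus_laevis_v10.1 matched 3 of the 4 members, and no coordinates or sequences were used. In the lists, 1 gene is not reported here and was left out of their counts.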

Additional observations from a re-analysis of the deposited data

Results flagged for a closer look

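The library labelled stage 40 Ueno, which entered no comparison, held 829 TPM of dand5.L and 575 TPM of dand5.S, against 0.200 and 0.130 TPM in stage 40 Taira. Egg Ueno held 854 and 615 TPM.

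At stage 20 against stage 15, the clutches moved in opposite directions for both dand5 copies. Dand5.L was at 1.65 TPM at stage 20 against 2.20 TPM at stage 15 in Taira, and at 2.90 against 1.02 TPM in Ueno. Dand5.S was at 2.72 against 3.15 TPM in Taira, and at 8.73 against 0.560 TPM in Ueno. At stage 9 against stage 8, dand5.S was at 202.23 against 202.21 TPM in Taira and at 359 against 363 TPM in Ueno, so the opposite directions there are within 5 TPM. With 1 library per clutch and stage, these differences between clutches were not tested.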

How the results depend on the processing

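Of 488 alternative values of the 4 members in 8 contrasts, 460 kept their side of the threshold, 22 lost a call, 6 gained one and 0 reversed a called direction. Without the replicate block, cer1.S lost its call at stage 12 against stage 10.5 (1.39) and at stage 20 against stage 15 (-2.11), and no other member's call changed. A pseudocount of 0.1 ended the same 2 calls (1.39 and -2.67) and added that of cer1.L in the tailbud (-1.13). A pseudocount of 5 added that of dand5.S at stage 10.5 against stage 9 (-1.24) and ended that of dand5.L in the tailbud (-0.41). With no filter on low values, cer1.S lost its call at stage 12 (1.39). Median-of-ratios scaling added dand5.L (-2.05) and dand5.S (-1.94) at stage 8 against the egg and cer1.L at stage 12 against stage 10.5 (1.03). Quantile normalization added the last (0.71) and ended that of cer1.S (1.32). With the library labelled stage 40 Ueno included, calls ended for dand5.L at stage 10.5 (-2.12), cer1.S (1.39), dand5.L (-4.21) and dand5.S (-4.65) at stage 12, cer1.S at stage 20 (-2.11), and dand5.L (-1.26) and dand5.S (-1.81) in the tailbud: the differences are those of the fit without it, with larger standard errors. Leaving out 1 library gave -2.64 to -1.60 for dand5.L at stage 10.5 against stage 9, 1.32 to 1.45 for cer1.S at stage 12 against stage 10.5 and -2.90 to -1.32 for cer1.S at stage 20 against stage 15. The cause was not tested.

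Counts of called models moved more than 1.5 times in 7 contrasts. Over the alternatives they were 6455 to 11683 (10295 as reported) at stage 8 against the egg, 136 to 483 (320) at stage 9, 1432 to 5418 (4429) at stage 10.5, 2733 to 9167 (8284) at stage 12, 1974 to 7590 (6408) at stage 15, 23 to 1809 (919) at stage 20 and 6860 to 14274 (13067) in the tailbud. TPM keeps no read counts, so values near 0 have no known floor.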
